A study of Arabidopsis thaliana with 8 samples.

Results

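The 74 genes described here are NAC transcription factors of Arabidopsis thaliana. They were taken from a table of 32833 genes as those whose best Swiss-Prot match is described as a NAC domain-containing protein or a NAC transcription factor, apart from 7 named loci that the selection leaves out, of which 4 match the description. The rule itself uses no expression value, but the members were chosen with earlier results of these data known. Of the 74 genes, 73 are annotated as protein coding and 71 carry the Pfam NAM domain, the DNA-binding fold that defines the family, while the whole table holds 108 genes with that domain. RNA was sequenced from whole seedlings in 8 libraries, with 2 from RNAi line 5, 3 from RNAi line 12 and 3 from wild type (WT, Col-0). In each line an RNAi construct targets RLI2 (ABCE2 in the deposited annotation), which encodes an ATPase; members of its family split ribosomes for reuse once translation has ended. The sources used here do not give the promoter of the construct, the number of transformation events behind each line or the hour of harvest. All seedlings spent 3 days on plates at 4 °C and then 7 days at 22 °C under long days (light for 16 h, darkness for 8 h), and the labels name no other treatment.

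NAC proteins bind DNA through a conserved N-terminal domain and activate or repress transcription through variable C-terminal regions. Some members, the NTL proteins, carry a C-terminal membrane anchor and reach the nucleus after they are released from the membrane. In Arabidopsis the family is known for the control of leaf senescence, drought and abscisic acid responses, the reply to mitochondrial and endoplasmic reticulum stress, and the making of vessels and fibres. A small group of NAC transcripts is cut by the microRNA miR164.

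The miR164 sites are shown because miR164 targets were among the members that differed between the lines. Each mature miRNA is given 5′ to 3′ with its seed, bases 2 to 8, in capitals, and each site is given 5′ to 3′ with the bases that face the seed in capitals. Sequences are from the RefSeq TAIR10.1 genome, which gave the same start and end as the deposited table for all 74 genes; gene positions below are those of the table (TAIR10). miR164a lies at chr2:19520770-19520790 on the plus strand, miR164b-5p has the same sequence, and miR164c-5p differs at its last base.
miR164a: uGGAGAAGcagggcacgugca
miR164c-5p: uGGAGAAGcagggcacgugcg
NAC079 site, chr5:2436958-2436978, plus strand: uuuacgugcccugCUUCUCCa
NAC100 site, chr5:24701687-24701707, minus strand: ucuacgugcccugCUUCUCCa
NAC021 site, chr1:20947142-20947162, minus strand: agcacguacccugCUUCUCCa
AT3G12977 site, chr3:4145631-4145651, plus strand: agcauguacccugCUUCUCCa
NAC92 site, chr5:15858797-15858817, minus strand: cucacgugaccugCUUCUCCg
All 5 sites lie in coding sequence within 1 exon, and all pair with the whole seed. Counting 1 for a mismatch and 0.5 for a G:U pair, the penalty against miR164a was 1.5 for NAC079 and NAC100, 2.0 for NAC021, 2.5 for AT3G12977 and 3.5 for NAC92. The next member had a penalty of 5.0. A match of letters does not show that a transcript was cut.

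The 250 bases before the annotated starts of NAC062 and NAC091 are shown because these 2 genes had the largest difference from WT in the mean of the lines. Capitals mark the G-box CACGTG in NAC062, which begins 191 bases before the gene start, and the W-box (TTGACC or TTGACT) in NAC091, which begins 65 bases before it. Both genes lie on the minus strand, and each sequence is given 5′ to 3′ in the direction of transcription.
NAC062, chr3:18364960-18365209, minus strand: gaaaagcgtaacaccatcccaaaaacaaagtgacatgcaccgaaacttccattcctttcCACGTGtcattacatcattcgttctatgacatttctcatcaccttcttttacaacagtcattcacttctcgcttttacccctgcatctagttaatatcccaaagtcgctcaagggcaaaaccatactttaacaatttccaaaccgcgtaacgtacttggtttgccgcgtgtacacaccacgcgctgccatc
NAC091, chr5:8419077-8419326, minus strand: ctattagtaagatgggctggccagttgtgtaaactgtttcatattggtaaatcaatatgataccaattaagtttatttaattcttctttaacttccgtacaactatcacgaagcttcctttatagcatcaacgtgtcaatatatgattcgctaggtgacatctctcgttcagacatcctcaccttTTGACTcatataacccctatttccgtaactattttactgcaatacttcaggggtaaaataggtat
On both strands of such 250-base stretches, the G-box was found in 7 of 74 members (9.46%), against 5.9% of all 32546 genes searched. The W-box was found in 10 members (13.5%), against 27.8% of all genes. The evening element AAAATATCT was found in 4 members (5.41%), against 2.23%, and the mitochondrial dysfunction motif, which some membrane-anchored NAC proteins bind, in 1 member (1.35%), against 0.701%. The letters CGCGTT, a stress response element added to the search after values had been seen, were found in 5 members (6.76%), against 2.52%. Of the 12 members higher in both lines, NAC014 and NAC062 held a G-box and NAC014 and NAC091 a W-box, and none held the other 3 motifs. These matches describe the letters in the window and are not evidence of binding.

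Values are FPKM, fragments scaled by gene length and library total, so that they can be compared between genes. The libraries implied 42280000 to 49010000 fragments each. The target ABCE2 averaged 25.7 ± 0.998 FPKM in line 5 and 25.5 ± 1.87 FPKM in line 12, against 58.0 ± 0.541 FPKM in WT (SD, n = 2, 3 and 3), so both lines kept close to 44% of the WT level (44.3% and 44.0%). Ribosomal RNA genes took 0.468% and 2.175% of fragments in line 5 and 0.161%, 2.338% and 7.602% in line 12, against 0.192% to 0.412% in WT, so the 3 libraries above 2% were all RNAi libraries. Summed FPKM of 16 root marker genes ranged from 33.4 to 46.4 in line 5 and from 34.5 to 76.3 in line 12, against 75.0 to 110.9 in WT; none of them was at 0 in every library. Of the 13 tested, 8 were lower and 0 higher in line 5, where 22.3% of all tested genes were lower, and 2 were lower and 1 higher in line 12, where 27.7% of all tested genes were lower. To be tested, a gene had to reach 1 FPKM in at least 2 libraries. COBL9, lower in both lines, and WER, lower in line 5, did so only through their WT libraries. Those calls carry no weight as support, though the counts include them. Summed FPKM of 8 green shoot markers was 26551 to 27840 in line 5 and 21397 to 23688 in line 12, against 25979 to 27333 in WT. The clock genes LHY and CCA1, which peak near dawn, were lower in both lines, with LHY at 20.2 FPKM in line 5, 10.6 FPKM in line 12 and 60.1 FPKM in WT. The part of root tissue, of the clock and of ribosomal RNA in the NAC differences was not tested, except where fits without the 3 libraries above 2% are given. In whole seedlings, fewer cells of a type and less RNA per cell cannot be told apart.

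NAC transcripts were measured at low to moderate levels. Of the 74 members, 45 reached 1 FPKM in at least 2 libraries and were tested, 23 lay under this filter with at most 1.42 FPKM in any library, and 6 were listed at 0 in every library. Of the tested members, 2 passed the filter through RNAi libraries alone and neither was called in any comparison, and 3 passed through WT libraries alone (NAC007, ANAC096 and ANAC097), where they were highest. Those 3 could pass only with WT above the filter, so their calls as lower in 1 or both lines carry no weight as support. The counts of lower members below still include them. ANAC096 and ANAC097 are in the count of line 5, and all 3 are in those of line 12 and of the mean of the lines. The median WT level was 5.03 FPKM over the tested members, against 9.67 FPKM over all 19395 tested genes. In WT, 10 tested members averaged at least 10 FPKM, 33 averaged 1 to 10 FPKM and 2 averaged under 1 FPKM. The summed level of all 74 members was 611.6 to 633.0 FPKM in line 5 and 616.7 to 744.3 FPKM in line 12, against 443.7 to 480.5 FPKM in WT. The highest member in WT was VNI2 (NAC083), a NAC protein known to oppose vessel formation and to delay senescence, at 89.8 FPKM. ANAC102, a stress-related relative of ATAF1, followed at 35.7 FPKM, NAC078 at 35.5 FPKM and ORE1 (NAC92), a central activator of leaf senescence, at 30.4 FPKM. The levels of ANAC102 in WT (33.6, 36.2 and 37.4 FPKM) and of NAC078 in WT (35.3, 35.6 and 35.6 FPKM) overlapped, while ORE1 had 29.5, 31.5 and 30.2 FPKM and VNI2 had 90.0, 89.5 and 89.9 FPKM. NAC078, a light-responsive activator of flavonoid genes, differed little between groups, with 33.4 and 33.9 FPKM in line 5 and 32.1, 33.6 and 35.4 FPKM in line 12. Its difference from WT was -0.08 on the log2(FPKM + 1) scale in each line, with 95% intervals of -0.21 to 0.05 in line 5 and -0.19 to 0.04 in line 12.

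More NAC genes were higher than lower in both lines. All differences below are on the log2(FPKM + 1) scale, which understates the change of low genes, and a gene was called where limma's adjusted p over all 19395 tested genes was under 0.05. In line 5, 18 of 45 members (40%) were higher, against 22.2% of all tested genes, and 10 (22.2%) were lower, against 22.3%. In line 12, 19 members (42.2%) were higher, against 28.3%, and 5 (11.1%) were lower, against 27.7%. Counted in either direction, 62.2% of members were called in line 5, against 44.6% of all genes, and 53.3% in line 12, against 56%. In the mean of the lines, 18 were higher (40%, against 28.1%) and 8 were lower (17.8%, against 28.1%). The count of lower members was the less stable one, with 6 in line 5 without WT replicate 2 or without line 5 replicate 1, and in the mean 4 without WT replicate 2 and 5 without line 5 replicate 1. Called at 2-fold or more on this scale were 10 members in line 5 (22.2%, against 9.46% of all genes) and 11 in line 12 (24.4%, against 11.1%). In all, 33 of 45 members were called in at least 1 line and 12 in neither. Of all tested genes, 35.4% were called in both lines in the same direction and 0.773% in opposite directions. Another 8.44% were called in line 5 only and 19.8% in line 12 only. Every RNAi library lay above every WT library for 14 members (31.1%, against 24.1% of all genes), and every RNAi library lay below for 4 (8.89%, against 24.7%).

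**Figure D1:**
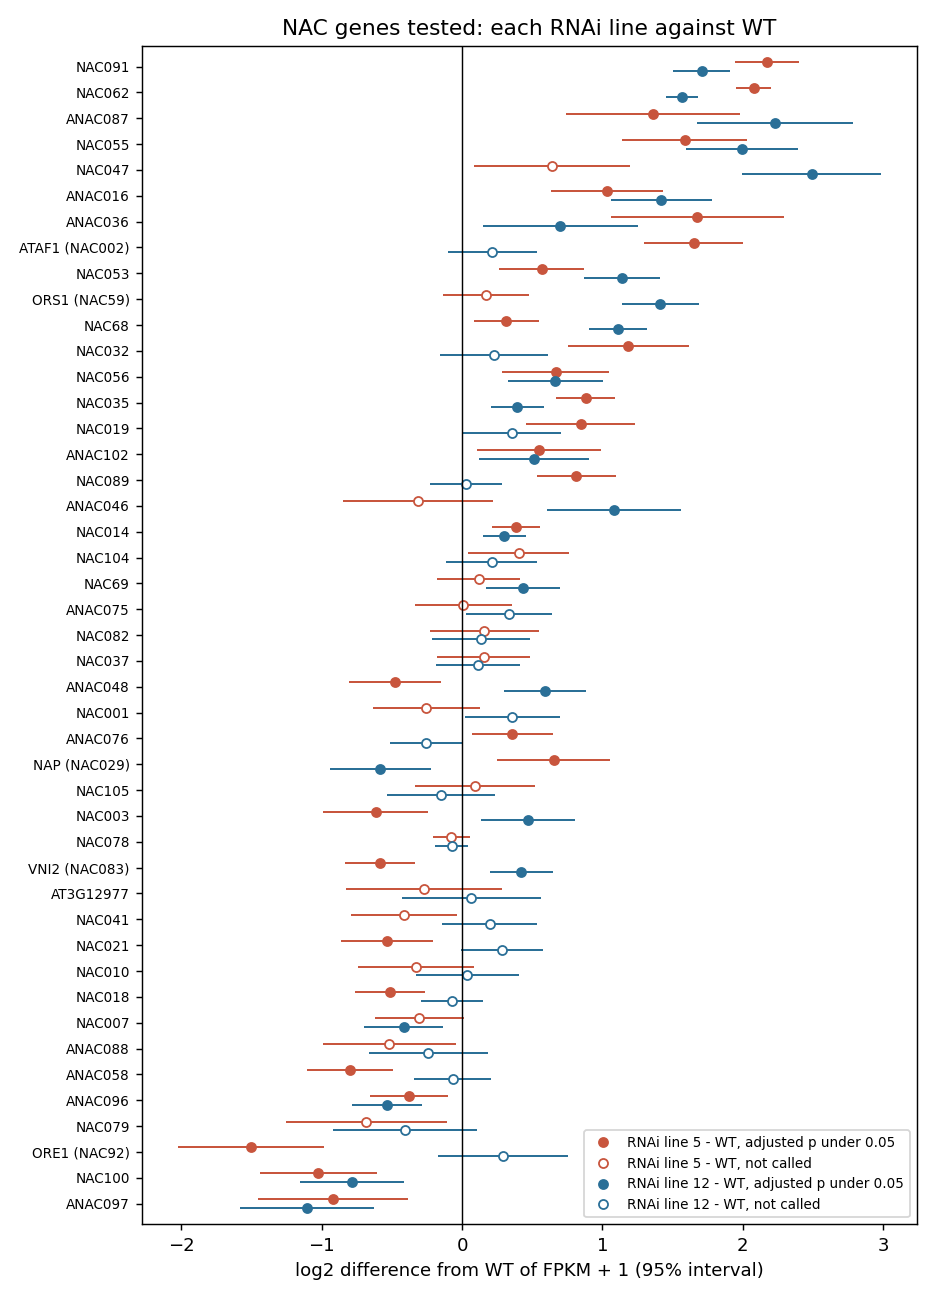
Difference from WT, as log2 of FPKM + 1 with its 95% interval, of the 45 tested NAC genes in line 5 (red) and line 12 (blue), ordered by the mean of the lines; filled points have an adjusted p under 0.05. NAC091 and NAC062 stand at the top with 2.17 and 2.08 in line 5, and ANAC097 at the bottom with -0.92 in line 5 and -1.10 in line 12.

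Called members that moved the same way in both lines numbered 15 of 45 (33.3%), against 35.4% of all tested genes. Of these, 12 were higher in both lines (26.7%, against 17.6%) and 3 were lower in both (6.67%, against 17.7%), 2 of which (ANAC096 and ANAC097) had entered the tests through WT libraries alone. Another 9 were called in line 5 but not in line 12 (20%, against 8.44%), and 5 in line 12 but not in line 5 (11.1%, against 19.8%). Both lines were set against the same WT libraries, so the 2 comparisons are not independent. The 12 higher members were NAC091, NAC062, ANAC087, NAC055, ANAC016, ANAC036, NAC053, NAC68, NAC056, NAC035, ANAC102 and NAC014, and the 3 lower ones were ANAC097, NAC100 and ANAC096.

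Most of the tested genes for membrane-anchored NAC proteins were higher in each line. Of 12 members in the list of such proteins, 9 were tested, 7 were higher in line 5, against 22.2% of all tested genes, 7 were higher in line 12, against 28.3%, and 0 were lower in either line. The median difference was 0.57 in line 5 and 1.11 in line 12, against -0.01 and -0.002 over all tested genes. NAC078, also in this list, was called in neither line, while NAC089 was called only in line 5 and NAC69 only in line 12. By the table's own annotation, 13 of 74 members (17.6%) carry the term for an integral membrane component, against 12.0% of all genes. Of the 9 tested with this term, 6 were higher in line 5 and 7 in line 12, against 12 of the other 36 members in each line. NAC062 (NTL6, AT3G49530, chr3:18362443-18364959), which links cold and unfolded protein stress to defence genes, had 46.3 and 47.8 FPKM in line 5 and 33.2, 31.8 and 33.1 FPKM in line 12, against 10.3, 10.2 and 10.7 FPKM in WT. The 3 groups did not overlap, with line 5 highest. Its difference from WT was 2.08 in line 5 (95% interval 1.95 to 2.20, adjusted p = 1.43e-06) and 1.57 in line 12 (1.45 to 1.68, adjusted p = 1.64e-06). NAC091 (TIP, AT5G24590, chr5:8416375-8419076), known as the NAC protein bound by the coat protein of turnip crinkle virus, had 41.5 and 45.0 FPKM in line 5 and 34.9, 28.3 and 30.1 FPKM in line 12, against 9.36, 8.90 and 8.20 FPKM in WT. Again the groups did not overlap and line 5 was highest. Its difference was 2.17 in line 5 (1.95 to 2.40, adjusted p = 5.46e-06) and 1.71 in line 12 (1.50 to 1.91, adjusted p = 5.86e-06). For both genes the calls against WT held under every alternative tried.

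ANAC016, an activator of senescence and of the drought response that is also membrane-anchored, had 4.11 and 3.18 FPKM in line 5 and 4.27, 6.02 and 4.95 FPKM in line 12, against 1.27, 1.61 and 0.935 FPKM in WT. Every RNAi library was above every WT library, with a difference of 1.03 in line 5 (adjusted p = 0.00219) and 1.42 in line 12 (adjusted p = 0.000173). NAC053 (NTL4), which promotes reactive oxygen production in drought and proteasome gene expression, had 16.9 and 13.7 FPKM in line 5 and 20.5, 22.2 and 26.9 FPKM in line 12, against 9.68, 10.7 and 9.37 FPKM in WT. The groups did not overlap and line 12 was highest (0.57 in line 5, adjusted p = 0.00949; 1.14 in line 12, adjusted p = 0.000128), and the call in line 5 ended without line 5 replicate 1 (adjusted p = 0.0803). NAC68 (NTM1), a regulator of cell division through cytokinin, had 3.37 and 4.03 FPKM in line 5 and 6.45, 7.59 and 7.48 FPKM in line 12, against 2.70, 2.72 and 2.90 FPKM in WT. Line 12 was clearly apart (1.11, 0.91 to 1.32, adjusted p = 3.9e-05). In line 5 the difference was 0.31 (adjusted p = 0.0347), and that call ended without WT replicate 1 (0.0855), WT replicate 2 (0.0822), WT replicate 3 (0.053) or line 5 replicate 2 (0.205). NAC014 (NTL2) had 8.42 and 8.26 FPKM in line 5 and 8.26, 7.39 and 7.83 FPKM in line 12, against 5.85, 6.24 and 6.39 FPKM in WT. This was a small difference without overlap, 0.38 in line 5 (adjusted p = 0.00403) and 0.30 in line 12 (adjusted p = 0.00528). NAC089, an anchored member with roles in fructose signalling and cell death under endoplasmic reticulum stress, had 13.9 and 14.2 FPKM in line 5 and 8.13, 8.02 and 7.10 FPKM in line 12, against 6.24, 8.51 and 8.15 FPKM in WT. Line 5 stood apart from WT (0.82, adjusted p = 0.00132), while line 12 overlapped it (0.03, -0.23 to 0.28), and the lines differed by -0.79 (adjusted p = 0.00504), a call that ended without the 3 libraries above 2% ribosomal RNA (adjusted p = 0.183). NAC69, the neighbour of NAC68, was higher in line 12 (0.43, adjusted p = 0.0132), which ended without those 3 libraries (0.28, adjusted p = 0.147).

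**Figure D2:**
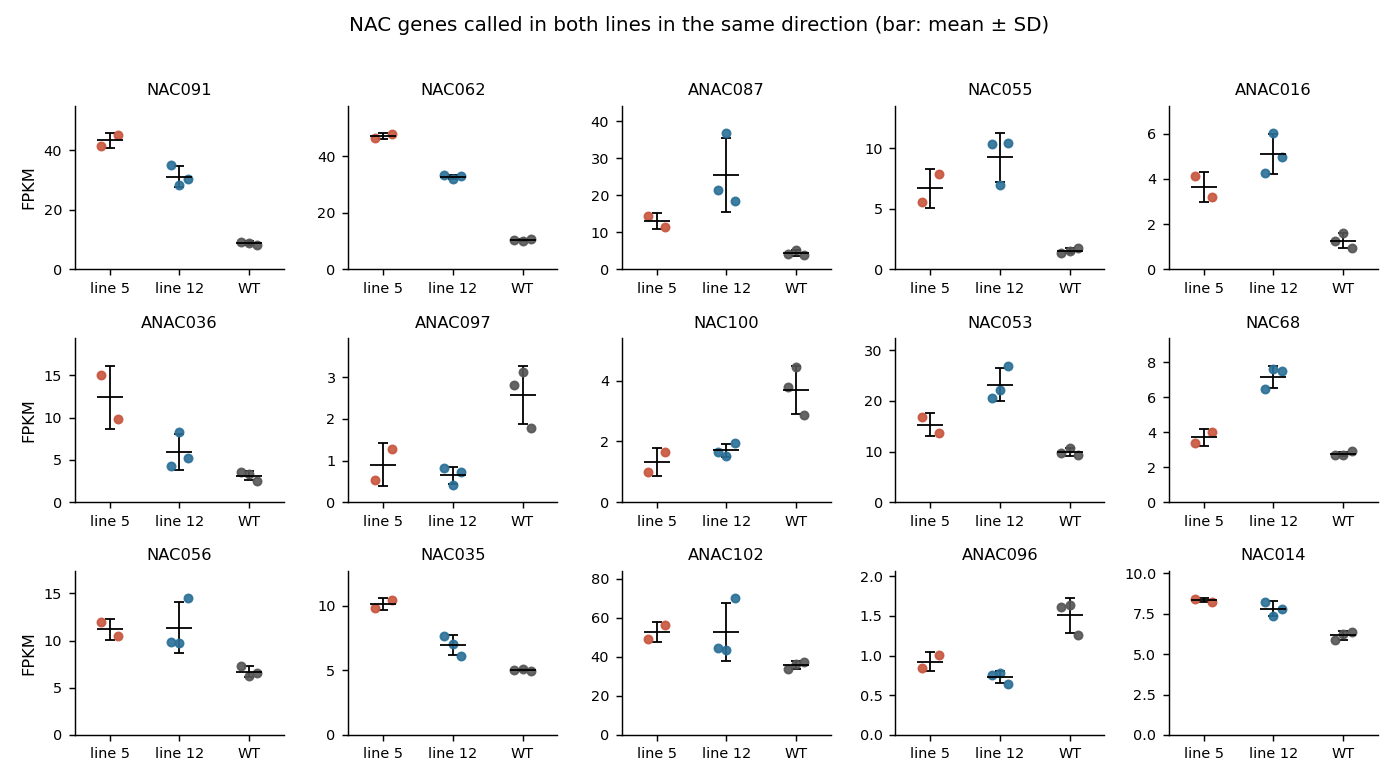
FPKM in each library of the 15 NAC genes called in the same direction in line 5 and line 12, with line 5, line 12 and WT from left to right; points are libraries and bars the mean ± SD (n = 2, 3 and 3). For NAC062 the RNAi libraries lie between 31.8 and 47.8 FPKM and the WT libraries between 10.2 and 10.7 FPKM.

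The stress clade around ATAF1 was higher in line 5, and in line 12 its members differed among themselves. All 5 of its members in the family as selected here (ATAF1, NAC032, ANAC102, NAC019 and NAC055) were called higher in line 5, against 22.2% of all tested genes, with a median difference of 1.18. In line 12, 2 were called higher, against 28.3% of all tested genes, with a median of 0.36, and that count was 1 without any single WT library and 4 without line 12 replicate 2. Between line 12 and line 5, 2 of the 5 were lower (ATAF1 and NAC032), against 9.93% of all tested genes, and 0 higher, against 9.07%. Fewer were lower without either line 5 library, and 1 was higher without line 12 replicate 2. ATAF1 (NAC002, AT1G01720, chr1:267993-269819), a regulator of abscisic acid synthesis and carbon starvation genes, had 82.6 and 101 FPKM in line 5 and 35.5, 27.0 and 38.2 FPKM in line 12, against 28.4, 30.8 and 26.4 FPKM in WT. Line 5 was far above both other groups, whose ranges overlapped. The difference was 1.65 in line 5 (1.3 to 2.0, adjusted p = 0.000121) and 0.21 in line 12 (-0.10 to 0.53, adjusted p = 0.217). Line 12 against line 5 was -1.44 (-1.79 to -1.08, adjusted p = 0.00126), and this call held under every alternative tried, while in line 12 against WT ATAF1 was called without line 12 replicate 2 (0.36, adjusted p = 0.0261). NAC032, a close relative that acts in stress and senescence, had 17.6 and 18.0 FPKM in line 5 and 7.18, 7.71 and 11.7 FPKM in line 12, against 7.44, 8.15 and 6.32 FPKM in WT. It followed ATAF1, with 1.18 in line 5 (adjusted p = 0.00165) and 0.23 in line 12 (adjusted p = 0.276), and the lines differed by -0.96 (adjusted p = 0.0118); that difference lost its call without line 5 replicate 1 (0.0572) or line 5 replicate 2 (0.0783).

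NAC055 and NAC019 encode related activators of jasmonate and abscisic acid responses. NAC055 (AT3G15500, chr3:5234457-5236196) had 5.56 and 7.84 FPKM in line 5 and 10.3, 6.92 and 10.5 FPKM in line 12, against 1.37, 1.51 and 1.75 FPKM in WT. Every RNAi library was above WT and the lines overlapped, with 1.59 in line 5 (1.14 to 2.03, adjusted p = 0.000446) and 1.99 in line 12 (1.59 to 2.39, adjusted p = 5.56e-05). NAC019 had 7.68 and 9.39 FPKM in line 5 and 7.06, 4.49 and 6.05 FPKM in line 12, against 3.87, 4.21 and 4.83 FPKM in WT. It was higher in line 5 (0.84, adjusted p = 0.00514), and in line 12 the difference of 0.36 missed the threshold (adjusted p = 0.0759) but passed without line 12 replicate 2 (0.51, adjusted p = 0.012). ANAC102 had 49.2 and 56.2 FPKM in line 5 and 44.3, 43.6 and 69.9 FPKM in line 12, against 33.6, 36.2 and 37.4 FPKM in WT. No RNAi library reached down to WT, but the calls were weak (0.55 in line 5, adjusted p = 0.0486; 0.51 in line 12, adjusted p = 0.0336). In both lines they ended without WT replicate 1, WT replicate 2 or WT replicate 3 (adjusted p from 0.0613 to 0.117), and in line 5 also without line 5 replicate 1 (0.104) or line 5 replicate 2 (0.204). In line 12 the difference was 0.31 without the 3 libraries above 2% ribosomal RNA (adjusted p = 0.0507).

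Genes for senescence-related NAC proteins were higher more often in line 12 than lower, and differed most between the lines. Of 10 listed members 9 were tested. In line 5, 3 were higher and 2 lower, with a median of 0.17, near the 22.2% and 22.3% of all tested genes. In line 12, 6 were higher, against 28.3% of all tested genes, and 1 was lower, against 27.7%, with a median of 1.08. Between line 12 and line 5, 5 were higher, against 9.07% of all tested genes, and 1 was lower, against 9.93%. The median was 1.0, against -0.01 over all tested genes. Fewer were higher without the 3 libraries above 2% ribosomal RNA, a fit with 1 library of each line. ANAC087 (AT5G18270, chr5:6040919-6043014), which takes part in programmed cell death in the root cap and in leaf senescence, had 14.5 and 11.5 FPKM in line 5 and 21.4, 36.8 and 18.4 FPKM in line 12, against 4.24, 5.28 and 3.88 FPKM in WT. The groups did not overlap, with line 12 highest (1.36 in line 5, adjusted p = 0.00485; 2.23 in line 12, adjusted p = 0.000166). The lines differed by 0.87 (0.25 to 1.49), which missed the threshold (adjusted p = 0.0595) and passed without line 12 replicate 3 (1.06, adjusted p = 0.0421).

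In the family, 14 of 45 members (31.1%) were higher in line 12 than in line 5, against 9.07% of all tested genes, and 9 (20%) were lower, against 9.93%. In either direction 51.1% of members differed between the lines, against 19% of all genes. At 2-fold or more on this scale, 9 members were called (20%, against 2.91%). All line 12 libraries lay above both line 5 libraries for 18 members (40%, against 23.1%) and below them for 11 (24.4%, against 26.5%). The median size of the difference was 0.49 over the members, against 0.17 over all tested genes. The counts were 7 higher and 4 lower without line 5 replicate 2. Without the 3 libraries above 2% ribosomal RNA they were 3 higher and 3 lower; that fit holds 1 library of each line, with the spread taken from WT. Of the 23 calls, 5 held under every alternative tried: ATAF1, NAP, ORS1, VNI2 and ORE1. ABCE2 itself differed between the lines by -0.01 (-0.17 to 0.15).

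**Figure D3:**
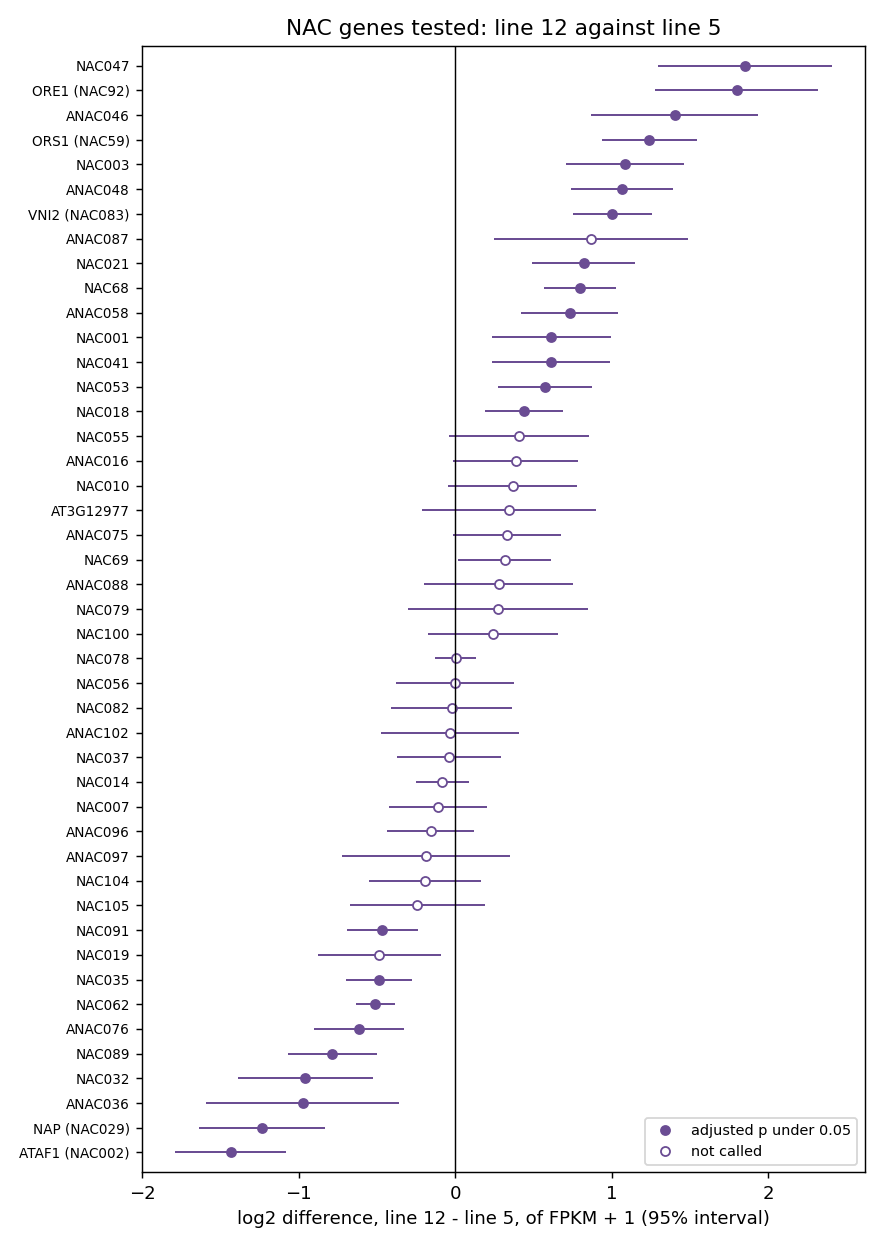
Line 12 less line 5, as log2 of FPKM + 1 with its 95% interval, for the 45 tested NAC genes; filled points have an adjusted p under 0.05. NAC047 (1.85) and ORE1 (1.80) lie at the upper end and ATAF1 (-1.44) and NAP (-1.23) at the lower end.

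ORE1 (NAC92, AT5G39610, chr5:15858398-15859911) was lower in line 5 and near WT in line 12. It had 8.72 and 11.5 FPKM in line 5 and 32.2, 30.5 and 53.2 FPKM in line 12, against 29.5, 31.5 and 30.2 FPKM in WT. Both line 5 libraries were below every other library, and line 12 overlapped WT, with replicate 3 the highest of all. The difference was -1.51 in line 5 (-2.03 to -0.99, adjusted p = 0.00128) and 0.29 in line 12 (-0.17 to 0.76, adjusted p = 0.248), and line 12 exceeded line 5 by 1.80 (1.28 to 2.32, adjusted p = 0.00218). ORS1 (NAC59, AT3G29035, chr3:11033665-11035308), its closest relative and also an activator of senescence, had 12.1 and 11.8 FPKM in line 5 and 27.8, 26.2 and 35.5 FPKM in line 12, against 9.37, 11.3 and 10.9 FPKM in WT. Here line 12 stood alone, with 1.41 against WT (1.14 to 1.69, adjusted p = 4.76e-05) and 1.24 against line 5 (0.94 to 1.55, adjusted p = 0.00126). In line 5 the difference from WT was 0.17 (-0.13 to 0.48).

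NAP (NAC029, AT1G69490, chr1:26122080-26123514), an activator of chlorophyll loss and abscisic acid synthesis in ageing leaves, moved in opposite directions in the lines. It had 42.0 and 48.6 FPKM in line 5 and 18.4, 14.6 and 23.9 FPKM in line 12, against 29.0, 29.5 and 26.8 FPKM in WT. Line 5 lay above WT and line 12 below it, without overlap. The difference was 0.65 in line 5 (adjusted p = 0.0182) and -0.58 in line 12 (adjusted p = 0.014), and -1.23 between the lines (-1.64 to -0.83, adjusted p = 0.00349); the call in line 5 ended without line 5 replicate 2 (adjusted p = 0.106). VNI2 (NAC083, AT5G13180, chr5:4196256-4197940) did the reverse, with 60.4 and 58.8 FPKM in line 5 and 102, 132 and 131 FPKM in line 12, against 90.0, 89.5 and 89.9 FPKM in WT. Line 5 lay below WT (-0.58, adjusted p = 0.00362) and line 12 above it (0.42, adjusted p = 0.00699), again without overlap, with 1.0 between the lines (0.75 to 1.25, adjusted p = 0.0013). In line 12 the VNI2 call ended without the 3 libraries above 2% ribosomal RNA (0.18, adjusted p = 0.0956).

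Of the 45 tested members, 4 (8.89%) were called in opposite directions in the lines, against 0.773% of all tested genes: NAP, VNI2, NAC003 and ANAC048. The count was 2 without WT replicate 1 or WT replicate 2. It also fell without line 5 replicate 1, line 5 replicate 2 or the 3 libraries above 2% ribosomal RNA. The share of all tested genes in those fits was not worked out. NAC003 had 2.96 and 3.77 FPKM in line 5 and 6.78, 10.1 and 8.05 FPKM in line 12, against 5.02, 6.22 and 5.80 FPKM in WT. ANAC048 had 1.32 and 1.23 FPKM in line 5 and 3.07, 4.54 and 3.78 FPKM in line 12, against 2.45, 2.08 and 1.99 FPKM in WT. Both were lowest in line 5 and highest in line 12 with no overlap. NAC003 differed between the lines by 1.08 (0.71 to 1.46, adjusted p = 0.00428) and ANAC048 by 1.07 (0.74 to 1.39, adjusted p = 0.0026). Against WT, NAC003 lost its call in line 5 without WT replicate 2 (0.053) or line 5 replicate 1 (0.122), and in line 12 without WT replicate 1 (0.0842), WT replicate 3 (0.0547), line 12 replicate 2 (0.0649) or line 12 replicate 3 (0.0549). ANAC048 lost its call in line 5 without WT replicate 1 (0.0782), WT replicate 2 (0.0538) or either line 5 library (0.0912 and 0.109). Without the 3 libraries above 2% ribosomal RNA, the difference in line 12 was 0.22 for NAC003 (adjusted p = 0.256) and 0.36 for ANAC048 (adjusted p = 0.122), and neither passed between the lines (adjusted p of 0.0642 and 0.108).

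NAC047 and ANAC046 are neighbours on chromosome 3, 6104 bases apart on the same strand, and both are known from senescence, NAC047 also from leaf movement under waterlogging. NAC047 (AT3G04070, chr3:1061300-1063234) had 8.48 and 5.24 FPKM in line 5 and 21.0, 33.1 and 27.5 FPKM in line 12, against 3.26, 4.89 and 3.79 FPKM in WT. Line 12 was highest and both lines were above WT. The difference was 2.49 in line 12 (2.0 to 2.99, adjusted p = 5.43e-05) and 1.85 between the lines (1.3 to 2.40, adjusted p = 0.0024). In line 5 it was 0.64, which missed the threshold (adjusted p = 0.0608) and passed without line 5 replicate 2 (0.94, adjusted p = 0.0323) or line 12 replicate 1 (0.64, adjusted p = 0.0448). ANAC046 had 2.31 and 1.84 FPKM in line 5 and 5.03, 9.53 and 7.35 FPKM in line 12, against 2.44, 3.54 and 2.56 FPKM in WT. It was higher in line 12 (1.08, adjusted p = 0.0029) and not called in line 5 (-0.32, adjusted p = 0.299), with 1.40 between the lines (adjusted p = 0.00631), a call that ended without line 5 replicate 2 (1.29, adjusted p = 0.0544). Without the 3 libraries above 2% ribosomal RNA, the difference between the lines was 1.21 for NAC047 (adjusted p = 0.0824) and 0.87 for ANAC046 (adjusted p = 0.153), and the call of ANAC046 in line 12 against WT ended (0.66, adjusted p = 0.054).

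**Figure D4:**
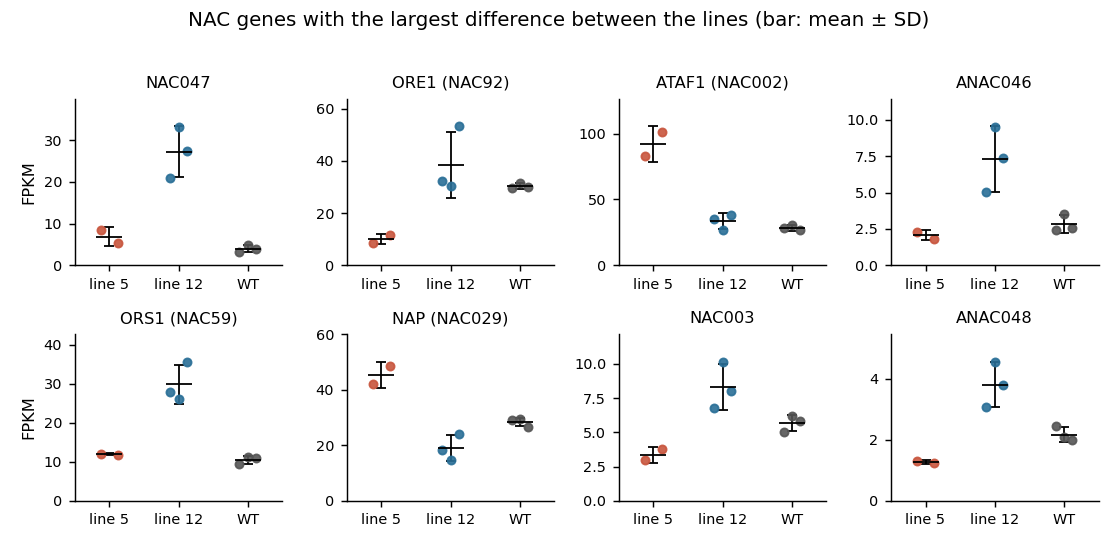
FPKM in each library of the 8 NAC genes with the largest called difference between the lines, with line 5, line 12 and WT from left to right; points are libraries and bars the mean ± SD (n = 2, 3 and 3). ORE1 is at 8.72 and 11.5 FPKM in line 5 and at 30.5 to 53.2 FPKM in line 12, while ATAF1 is at 82.6 and 101 FPKM in line 5 and at 27.0 to 38.2 FPKM in line 12.

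Genes that act downstream of ORE1, NAP and ANAC046 in chlorophyll breakdown and senescence included several that were higher, and some that differed between the lines. Of 13 listed genes 12 were tested, and SAG12, the usual marker of late senescence, was listed at 0 in every library. In line 5, 4 were higher, against 22.2% of all tested genes, and 0 lower, and 2 were higher without line 5 replicate 1. In line 12, 5 were higher, against 28.3%, and 0 lower, and 2 were higher without the 3 libraries above 2% ribosomal RNA. The shares of all genes are from the fit of all 8 libraries, so they cannot be set against the reduced counts. The median difference was 0.02 in line 5 and 0.57 in line 12. Of all tested genes, 22.3% were lower in line 5 and 27.7% in line 12. NYE1, NOL, BFN1, RNS3, SAG13 and SAG29 were called in neither line. Both line 5 libraries of BFN1 lay below every WT library (-0.79, adjusted p = 0.0779). Between line 12 and line 5, 3 genes were higher, against 9.07% of all tested genes, and 1 was lower, against 9.93%. Leaving out line 12 replicate 2 or line 12 replicate 3 left 1 higher. SAG113, a protein phosphatase gene that NAP activates directly, had 40.7 and 40.6 FPKM in line 5 and 4.29, 2.29 and 4.70 FPKM in line 12, against 4.89, 3.75 and 5.02 FPKM in WT. Like NAP, it was high in line 5, with 2.92 against WT (adjusted p = 5.27e-05); in line 12 it overlapped WT (-0.25, -0.72 to 0.21), and the lines differed by -3.17 (adjusted p = 0.000311). AAO3, an abscisic aldehyde oxidase gene that NAP also activates, was higher in both lines (0.84 in line 5, adjusted p = 0.00375; 0.67 in line 12, adjusted p = 0.00471). NYC1, a chlorophyll b reductase, had 59.9 and 54.4 FPKM in line 5 and 81.3, 101 and 96.7 FPKM in line 12, against 39.4, 42.1 and 43.5 FPKM in WT. The groups did not overlap and line 12 was highest (0.45 in line 5, adjusted p = 0.00849; 1.14 in line 12, adjusted p = 3.55e-05), with the call in line 5 ended without line 5 replicate 1 (0.0699). PPH, pheophytinase, was higher in both lines (0.56 in line 5, adjusted p = 0.0315; 0.74 in line 12, adjusted p = 0.00424), and in line 5 this ended without WT replicate 2 (0.0718), WT replicate 3 (0.0824) or either line 5 library (0.121 and 0.108). PAO and NYE2 were higher in line 12 (0.60, adjusted p = 0.0041, and 1.15, adjusted p = 0.00564), and their differences in line 5 were 0.02 and -0.09. The calls in line 12 ended without the 3 libraries above 2% ribosomal RNA for PAO (0.34, adjusted p = 0.0801), NYE2 (0.65, adjusted p = 0.103) and PPH (0.46, adjusted p = 0.0782).

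**Figure D5:**
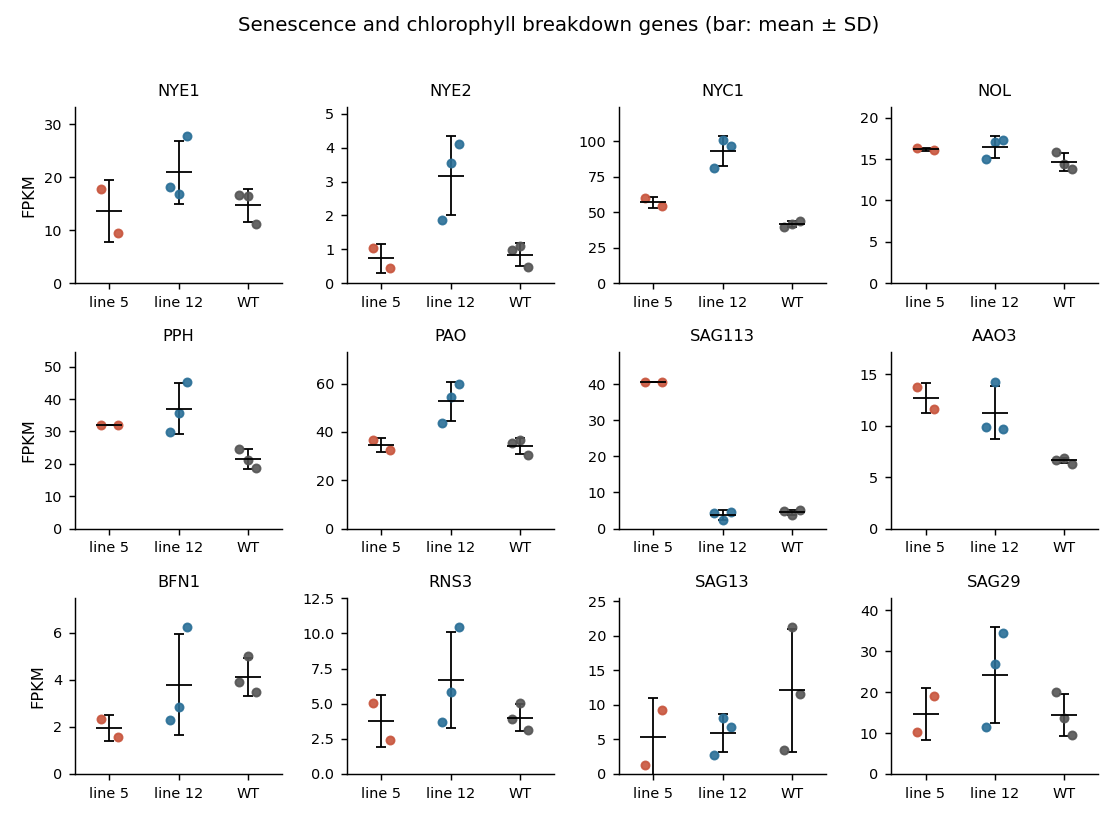
FPKM in each library of the 12 tested genes of the senescence and chlorophyll breakdown list, with line 5, line 12 and WT from left to right; points are libraries and bars the mean ± SD (n = 2, 3 and 3). SAG113 is near 40.7 FPKM in line 5 and at most 5.02 FPKM elsewhere, while NYC1 is highest in line 12.

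The miR164 targets among these members were lower in line 5 or not called. Of 6 targets planned for the list, 4 are members, and CUC1 and CUC2 are not taken by the selection. In line 5, 3 of the 4 listed targets were lower (ORE1, NAC100 and NAC021) and 0 were higher, with a median of -0.85; 22.3% of all tested genes were lower. In line 12, NAC100 was lower, where 27.7% of all tested genes were lower, and 0 were higher, with a median of -0.06, and 2 were lower without line 12 replicate 1. NAC100 (AT5G61430, chr5:24701062-24702787), the member with the closest match to miR164a beside NAC079, had 0.984 and 1.64 FPKM in line 5 and 1.64, 1.53 and 1.95 FPKM in line 12, against 3.79, 4.44 and 2.87 FPKM in WT. Every RNAi library was below every WT library (-1.02 in line 5, adjusted p = 0.00271; -0.78 in line 12, adjusted p = 0.00399). NAC021, also known as NAC1, which promotes lateral roots downstream of auxin, had 6.81 and 6.19 FPKM in line 5 and 12.6, 10.1 and 14.4 FPKM in line 12, against 9.54, 11 and 9.15 FPKM in WT. Line 5 was below WT (-0.54, adjusted p = 0.0171) and line 12 overlapped it (0.28, adjusted p = 0.09), with 0.82 between the lines (adjusted p = 0.00748). Its call in line 5 ended without WT replicate 2 (0.0526) or either line 5 library (0.0558 and 0.0919), in line 12 it was called without line 12 replicate 2 (0.41, adjusted p = 0.0136), and the difference between the lines ended without line 5 replicate 2 (0.0617). NAC079 had 3.01 and 3.70 FPKM in line 5 and 6.14, 2.71 and 4.47 FPKM in line 12, against 5.20, 6.65 and 6.12 FPKM in WT. Line 5 was below WT, but the difference of -0.68 missed the threshold (adjusted p = 0.0561) and passed without line 12 replicate 1 (0.0226) or line 12 replicate 2 (0.0102); in line 12 the difference of -0.41 (adjusted p = 0.153) passed without line 12 replicate 1 (-0.63, adjusted p = 0.0252). AT3G12977, which holds a site of the same kind and was not in the list, was not called in either line (-0.27 and 0.07). The miR164 precursor genes were too low to test: MIR164A was listed at 0 in every library, MIR164B had 0.733 and 1.19 FPKM in line 5 and 0.410, 0.151 and 0.301 FPKM in line 12, against 0.703, 0.667 and 0.773 FPKM in WT, and MIR164C was at most 0.633 FPKM. The mature miRNA was not measured.

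Switches of vessel and fibre formation were low. Of 13 members, 6 were tested, 3 were listed at 0 in every library and the other 4 lay under the filter. In line 5, 1 was higher, against 22.2% of all tested genes, and 0 were lower, against 22.3%. In line 12, 0 were higher, against 28.3%, and 1 was lower, against 27.7%. With 6 genes tested, these counts do not set the switches apart from all genes. The lower one, NAC007, passed the filter through WT libraries alone, so its call carries no weight as support. ANAC076 (VND2), a vessel switch, was the 1 gene called higher in line 5 (0.36, adjusted p = 0.0478), from 1.69 and 1.70 FPKM in line 5 and 0.930, 0.707 and 0.647 FPKM in line 12, against 0.924, 1.13 and 1.27 FPKM in WT. This call ended in 11 of the 15 alternatives in which ANAC076 was tested. These included leaving out WT replicate 1, WT replicate 2, either line 5 library, line 12 replicate 2 or line 12 replicate 3. Median centring, adding 0.1 in place of 1 and fitting only the groups compared also ended it. The difference of ANAC076 between the lines of -0.62 (adjusted p = 0.0134) lost its call without either line 5 library. NAC007 (VND4) was the 1 gene called lower in line 12 (-0.42, adjusted p = 0.0207), which ended without WT replicate 2 (0.0702), line 12 replicate 2 (0.0613) or the 3 libraries above 2% ribosomal RNA (0.175). Of 10 tested genes of secondary wall making and vessel death, 0 were higher and 4 lower in line 5, where 22.3% of all tested genes were lower, and 2 were higher and 6 lower in line 12, where 27.7% of all tested genes were lower. IRX9, counted as lower in both lines, passed the filter through WT libraries alone, so its calls carry no weight as support. The lower count in line 5 was 0 without WT replicate 2 or either line 5 library, 1 without WT replicate 1 or line 12 replicate 3 and 2 without line 12 replicate 1, and that in line 12 was 3 without WT replicate 1, WT replicate 2 or line 12 replicate 2. Without the 3 libraries above 2% ribosomal RNA, 0 were lower in line 5, and 1 was lower and 1 higher in line 12. The 2 higher genes in line 12 were FRA8, a xylan synthesis gene listed as IRX7, and the metacaspase gene MC9, listed as AMC9. MC9 had 0.90 in line 12 (adjusted p = 0.016), and without those 3 libraries 0.39 (adjusted p = 0.0532). FRA8 averaged 9.18 FPKM in line 5, 30.1 FPKM in line 12 and 7.57 FPKM in WT, which gave 1.86 in line 12 (adjusted p = 6.98e-06).

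Among members in no list, 13 of 29 were tested, with 3 higher and 6 lower in line 5, against 22.2% and 22.3% of all tested genes, and 5 higher and 2 lower in line 12, against 28.3% and 27.7%. ANAC036, whose overexpression is known to dwarf the plant, had 15 and 9.78 FPKM in line 5 and 4.22, 8.30 and 5.17 FPKM in line 12, against 3.58, 3.36 and 2.5 FPKM in WT. It was highest in line 5 (1.67, adjusted p = 0.00174); in line 12 the difference was 0.70 (adjusted p = 0.0365), a call that ended without WT replicate 1 (0.0561), WT replicate 2 (0.0678), WT replicate 3 (0.111), line 12 replicate 2 (0.0882) or line 12 replicate 3 (0.0601), and was 0.34 without the 3 libraries above 2% ribosomal RNA (0.198). NAC035 (LOV1), a floral repressor linked to cold tolerance, had 9.80 and 10.4 FPKM in line 5 and 7.67, 7.06 and 6.12 FPKM in line 12, against 5.05, 5.10 and 4.96 FPKM in WT. The groups did not overlap (0.88 in line 5, adjusted p = 0.000212; 0.39 in line 12, adjusted p = 0.00447). NAC056, a seed and nitrate-related member that neighbours NAC055, had 12.0 and 10.4 FPKM in line 5 and 9.88, 9.75 and 14.5 FPKM in line 12, against 7.33, 6.24 and 6.55 FPKM in WT. All RNAi libraries were above WT (0.67 in line 5, adjusted p = 0.0127; 0.66 in line 12, adjusted p = 0.00575), and the call in line 5 ended without line 5 replicate 1 (0.0904).

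Both ANAC097 and ANAC096 were lower in both lines, at low levels. ANAC097 had 0.531 and 1.28 FPKM in line 5 and 0.810, 0.422 and 0.718 FPKM in line 12, against 2.83, 3.12 and 1.78 FPKM in WT. Each RNAi library was below WT (-0.92 in line 5, adjusted p = 0.0141; -1.10 in line 12, adjusted p = 0.00266), and the call in line 5 ended without line 5 replicate 1 (0.111). ANAC096, which works with abscisic acid response factors, had 0.844 and 1.01 FPKM in line 5 and 0.760, 0.777 and 0.642 FPKM in line 12, against 1.62, 1.64 and 1.26 FPKM in WT. The difference was -0.38 in line 5 (adjusted p = 0.0355) and -0.54 in line 12 (adjusted p = 0.00378), and in line 5 it ended without WT replicate 1 or WT replicate 2 (0.099 each) or without either line 5 library (0.182 and 0.0744). It passed in neither line without the 3 libraries above 2% ribosomal RNA (0.117 in line 5 and 0.0813 in line 12). NAC018, a seed member next to NAC019 on chromosome 1, had 5.66 and 5.41 FPKM in line 5 and 7.55, 7.67 and 8.39 FPKM in line 12, against 9.15, 8.84 and 7.11 FPKM in WT. It was lower in line 5 (-0.51, adjusted p = 0.00617, and 0.0674 without the 3 libraries above 2% ribosomal RNA) while NAC019, 6334 bases away on the same strand, was higher there (0.84), so neighbouring members did not always move together. NAC082, known in Arabidopsis as a mediator of the ribosomal stress response, had 34.5 and 29.2 FPKM in line 5 and 32.3, 25.7 and 36.3 FPKM in line 12, against 27.3, 33.5 and 24.8 FPKM in WT. All 3 groups overlapped, and its differences were 0.16 in line 5 (-0.23 to 0.55) and 0.13 in line 12 (-0.21 to 0.48).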

How the data were processed

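RNA from whole seedlings was measured in 8 libraries, grouped by title. Per the submitters' processing notes, HISAT2, StringTie and TAIR10 were used; the sources used here give no counting step, annotation version or strand setting. The authors deposited 1 table of length- and depth-scaled values per gene and library, taken here as FPKM. That unit was read from the values, which are not whole, differ in their sum and fall on steps of 1 fragment per gene length. Close relatives in this family, and members that overlap another gene (NAC002, NAC021, NAC035, ANAC076, NAC078, ANAC088 and ANAC102), may share reads.

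A gene entered the tests if 2 or more libraries reached 1 FPKM, which 19395 did. Values were analysed as log2(FPKM + 1) in 1 model of the 3 groups, by limma 3.58.1 (R 4.3.3) with a variance trend on expression and a prior of 2.711 degrees of freedom. P-values were adjusted over all these genes by the Benjamini-Hochberg method, with a threshold of 0.05. The procedure was tested on simulated data. Sequences were searched in the RefSeq TAIR10.1 genome; Python 3.11.15, pandas 2.3.3, numpy 2.4.6 and matplotlib 3.10.9 were used. The labels do not state that libraries are separate cultures: the p-values therefore reflect variation among these samples, which may be technical. Deviations of same-numbered libraries from their group means correlated between -0.298 and 0.163, and those of different-numbered libraries between -0.288 and 0.288. Deviations within so small a group cancel one another, so these values cannot decide whether replicate numbers pair the libraries.

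The members and lists were chosen with earlier results of these data known. The rule for values of every library took members called the same way in both lines (up to 16), the 8 with the largest called difference between the lines, miR164 targets and the 4 most abundant members in WT. NAC018, NAC019, NAC032, NAC082, NAC089, ANAC076 and the genes downstream that are named were added, some after their values were seen. Loci of the role lists that the selection does not take were dropped, which left 0 members in the organ boundary list and 3, none tested, in the root cap and phloem list. Of 6 seed storage markers, 1 was tested and not called.

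Each alternative changed 1 choice: centring libraries on their medians, removing the filter, raising it to 5 FPKM, adding 0.1 in place of 1, blocking by replicate number, fitting only the groups compared, leaving out each library or the 3 with over 2% ribosomal RNA, or rescaling without ribosomal RNA and organelle genes. These alternatives for shared, opposite and list counts were added after the data were seen. With 1 line 5 library left, it is assumed to vary like the other groups. No protein sequence was analysed here.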

Additional observations from a re-analysis of the deposited data

Results flagged for a closer look

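The difference between line 12 and line 5 was tested for each member in the fit of all genes, and 23 NAC genes passed at an adjusted p under 0.05. They are set out here because the lines carry a construct against the same gene and ABCE2 was at a like level in both. Lower in line 12 than in line 5, on the log2(FPKM + 1) scale, were ATAF1 (NAC002) (-1.44), NAP (NAC029) (-1.23), ANAC036 (-0.97), NAC032 (-0.96), NAC089 (-0.79), ANAC076 (-0.62), NAC062 (-0.51), NAC035 (-0.49) and NAC091 (-0.47). Higher in line 12 than in line 5 were NAC018 (0.44), NAC053 (0.57), NAC041 (0.61), NAC001 (0.61), ANAC058 (0.73), NAC68 (0.80), NAC021 (0.82), VNI2 (NAC083) (1.0), ANAC048 (1.07), NAC003 (1.08), ORS1 (NAC59) (1.24), ANAC046 (1.40), ORE1 (NAC92) (1.80) and NAC047 (1.85). Line 12 replicates 2 and 3 and line 5 replicate 2 are the libraries above 2% ribosomal RNA, and without them 6 of these members passed. Without line 5 replicate 2, 12 of the 23 lost the call (adjusted p from 0.0544 to 0.231): NAC001, NAC018, NAC021, NAC032, NAC035, ANAC036, NAC041, ANAC046, NAC053, ANAC058, ANAC076 and NAC091. Of these, NAC001, NAC018, NAC032, ANAC036 and ANAC076 also lost it without line 5 replicate 1 (adjusted p from 0.0572 to 0.209).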

How the results depend on the processing

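No call on a single NAC gene changed direction under any alternative. Of the calls against WT, 16 of 28 in line 5, 15 of 24 in line 12 and 20 of 26 in the mean of the lines held in every alternative, and of those between the lines 5 of 23.

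A filter at 5 FPKM left 6 members lower in line 5, 1 lower in line 12 and 4 lower in the mean of the lines. Without the 3 libraries above 2% ribosomal RNA, 7012 genes were called in line 12 and 431 between the lines, 3 members were lower in line 12, 3 were higher and 3 lower between the lines, and 1 was called in opposite directions. With the replicate number as a block, 1539 genes passed between the lines, against 3685, with 9 members higher and 5 lower. Whether the numbers pair the libraries was not settled. Leaving out 1 library at a time, genes called numbered 5455 to 8800 in line 5 and 1403 to 3607 between the lines. Members lower numbered 6 to 11 in line 5 and 4 to 8 in the mean of the lines. Between the lines 7 to 14 members were higher and 4 to 9 lower, and 2 to 4 were called in opposite directions. Fits with 1 library of a line rest on fewer samples; other causes of these changes were not tested. Members under 1 FPKM were too low to test.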
